A study of Mus musculus with 4 samples.

Results

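The globin genes and 4 erythroid genes were examined in node-containing distal pieces of mouse embryos that carry GFP inserted into Noto, which encodes a homeodomain factor of the notochord and node. The adult chains were Hba-a1, Hba-a2 and Hbb-bt, the embryonic chains were Hba-x, Hbb-bh1 and Hbb-y, and the erythroid genes were Alas2, Gata1, Klf1 and Epor. Their probes were found by the gene name in the scanner files or by the current symbol of the probe's accession, which gave 14 of 41174 gene probes and 10 of 27591 named genes and transcripts. The gene called Hbb-b1 in the files carries the accession that RefSeq now assigns to Hbb-bt, and it is called Hbb-bt here. The set was chosen by the lower ratios of its adult globins in these same arrays, so those ratios are given as a description.

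The Noto GFP/GFP group was homozygous for the insertion and the Noto GFP/+ group heterozygous, both on a mixed Sv129/CD-1 background at the early headfold stage (~E7.75). No group without the insertion was measured, and no agent was given. Each group was 1 pool of 120 to 150 dissected pieces, whose stated size differs between fields of the labels. RNA of both pools was hybridised together on 1 Agilent 2-colour array, with Cy5 on GFP/GFP RNA, and again on a second array with the dyes exchanged. The 4 samples are thus 2 arrays of the same 2 pools, and the SD given below is the technical spread over 2 arrays. There is no biological replicate, so no p-value is given. In pooled tissue, fewer cells of a type and less RNA per cell cannot be told apart.

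Haemoglobin is built from alpha-like and beta-like globin chains, each bound to haem. In the mouse, primitive red cells that arise in the yolk sac blood islands make mainly embryonic chains, and definitive red cells of the fetal liver and adult marrow make the adult chains. Alas2 carries out the first step of haem synthesis in red cells, Gata1 and Klf1 are transcription factors that activate globin genes, and Epor is the erythropoietin receptor. The alpha-like genes lie together on chromosome 11 and the beta-like genes on chromosome 7.

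The probes decide which transcripts were read, so those that the comparison of adult with embryonic chains rests on are shown here, 5′ to 3′, as they stand in the scanner files. Each is 60 bases long, and probes of 1 gene are numbered from the 5′ end of the gene. Capitals mark bases that overlap another probe of the same chain type. One Hbb-bt probe at the 3′ end, probe 4, is not shown.
Hba-a1: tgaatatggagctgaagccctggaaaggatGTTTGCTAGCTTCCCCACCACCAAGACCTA
Hba-a2: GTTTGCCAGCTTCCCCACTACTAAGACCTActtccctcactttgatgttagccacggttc
Hbb-bt probe 1: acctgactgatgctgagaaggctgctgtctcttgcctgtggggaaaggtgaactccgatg
Hbb-bt probe 2: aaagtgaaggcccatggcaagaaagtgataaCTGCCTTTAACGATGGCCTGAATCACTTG
Hbb-bt probe 3: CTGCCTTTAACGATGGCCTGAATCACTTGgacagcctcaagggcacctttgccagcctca
Hba-x: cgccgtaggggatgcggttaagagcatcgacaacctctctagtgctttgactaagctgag
Hbb-bh1 probe 1: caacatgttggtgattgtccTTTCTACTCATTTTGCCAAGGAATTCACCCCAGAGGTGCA
Hbb-bh1 probe 2: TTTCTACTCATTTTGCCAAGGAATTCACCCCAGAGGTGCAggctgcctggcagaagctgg
Hbb-y: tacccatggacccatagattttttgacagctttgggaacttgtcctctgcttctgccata

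The 2 alpha probes overlapped over 30 bases with 3 mismatches, T37C, C49T and C52T, where the Hba-a1 probe's base comes first, positions count from its 5′ end, and the Hba-a2 probe's base comes last. The accessions listed for the Hba-a1 probe belong to both Hba-a1 and Hba-a2, so the chains of these near-identical genes cannot be told apart by it. On mouse build mm8, the build of the scanner files, that probe spans 182 bases (chr11:32183775-32183956, plus strand), so it crosses an intron, and the Hba-a2 probe lies at chr11:32196744-32196803. Hbb-bt probes 2 and 3 share 29 bases and the Hbb-bh1 probes share 40, so neither pair is independent. The Hbb-bt probes lie on the minus strand at chr7:103687624-103687683, chr7:103687338-103687397, chr7:103687307-103687366 and chr7:103686419-103686478, from probe 1 to probe 4. Probes 1 and 4 also list the accession of Hbb-b2, a second adult beta gene, while probes 2 and 3 list that of Hbb-bt alone.

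Adult globins were lower in the GFP/GFP pool, whose levels were 39.0% to 70.1% of those in the GFP/+ pool over the 6 adult probes. All 6 had ratios below 0 on both arrays. A probe or gene is called lower or higher here when array 1 and array 2 both showed a ratio of at least 1.5-fold (0.58 in log2 units) with the same sign. By that rule 5 of the 6 adult probes were lower, against 2.01% of the 27788 measured probes, and 3 of 3 adult genes were lower, against 2.35% of the 18607 measured genes. Among the 2114 genes whose brightness lay in the range of the adult globins, 1.94% were lower. Since the adult chains were chosen for these ratios, nothing is read from those counts. Probes count as measured when 1 genotype or both stood well above background on each of the 2 arrays, and the brightest measured probe gives the value of a gene. No member was higher, while 0.0864% of measured probes were.

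The adult beta chain gave the lowest ratio, read by its brightest probe, probe 3. Normalised levels of Hbb-bt on that probe, on a log2 scale, were 11.62 and 11.29 in the GFP/GFP pool on arrays 1 and 2, against 13.03 and 12.61 in the GFP/+ pool. Both GFP/GFP values lay below both GFP/+ values. Below, pools are said to overlap when their ranges of level over the 2 arrays do. This sets a level on 1 array beside a level on the other, so it ignores the pairing and includes the difference between arrays. The share of all measured genes whose pools do not overlap is not given here, so nothing is read from overlap or its absence. The log2 ratios of GFP/GFP over GFP/+ were -1.41 and -1.31, a mean of -1.36 ± 0.07 (SD, n = 2 arrays). Ranked from the lowest, Hbb-bt stood 46th of the 18607 measured genes and 9th of the 2114 genes as bright as the adult globins.

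The other Hbb-bt probes differed among themselves by more than they differed between arrays. Probe 2 read 10.79 and 10.57 in GFP/GFP, against 12.04 and 11.86 in GFP/+, a ratio of -1.27 ± 0.02. Probe 4, 1205 bases downstream of probe 1 on the chromosome, read 11.29 and 10.90 in GFP/GFP, against 12.27 and 11.89 in GFP/+, a ratio of -0.98 ± 0.01. Probe 1 had the smallest difference, with 9.77 and 9.14 in GFP/GFP, against 10.19 and 9.74 in GFP/+. Its ratios of -0.42 and -0.60 averaged -0.51 ± 0.13 and missed the size rule on array 1, and its pools overlapped, since GFP/GFP on array 1 lay above GFP/+ on array 2. The SD of the 4 probe means was 0.38, while the largest SD over arrays among them was 0.13. The 2 probes that list Hbb-bt alone had the 2 lowest ratios, and the 2 that also list Hbb-b2 had the other 2. The 2 lowest come from probes that share 29 bases. Which genes a probe reads was taken from its listed accessions, and no probe was compared with the sequence of Hbb-bs, another adult beta gene. The mean of the 4 probes was -1.03.

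The alpha chains were lower as well. Hba-a1 read 10.44 and 10.33 in the GFP/GFP pool on arrays 1 and 2, against 11.61 and 11.26 in the GFP/+ pool, with ratios of -1.18 and -0.93 and a mean of -1.05 ± 0.18 (SD, n = 2 arrays). For Hba-a2 the levels were 11.12 and 10.29 in GFP/GFP, against 11.92 and 11.21 in GFP/+, with ratios of -0.81 and -0.91 and a mean of -0.86 ± 0.08. The pools did not overlap for Hba-a1 or Hba-a2, though the Hba-a2 values of GFP/GFP on array 1 and GFP/+ on array 2 lay close. The GFP/GFP level was thus 48.2% of the GFP/+ level for Hba-a1 and 55.1% for Hba-a2. The order of the 2 alpha chains differed little beyond their spread, since on array 2 they read almost the same ratio. When arrays were centred on their median in place of an intensity-dependent loess fit, Hba-a2 missed the rule on array 1 (-0.37), while Hba-a1 and Hbb-bt stayed past it on both.

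The authors' deposited value table, given as intensities, follows the processed intensities of these same scans, so it is no separate support. It listed the same direction in every adult globin probe. For Hbb-bt probe 3 it held 1045 and 879 in GFP/GFP on arrays 1 and 2, against 2739 and 2194 in GFP/+. For Hba-a1 it held 540 and 457 in GFP/GFP, against 1211 and 859 in GFP/+, and for Hba-a2 691 and 432, against 1271 and 840. In this table the GFP/GFP values of Hbb-bt probe 3, Hba-a1 and Hba-a2 all lay below both GFP/+ values of the same probe. The scale of the table is not stated.

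**Figure D1:**
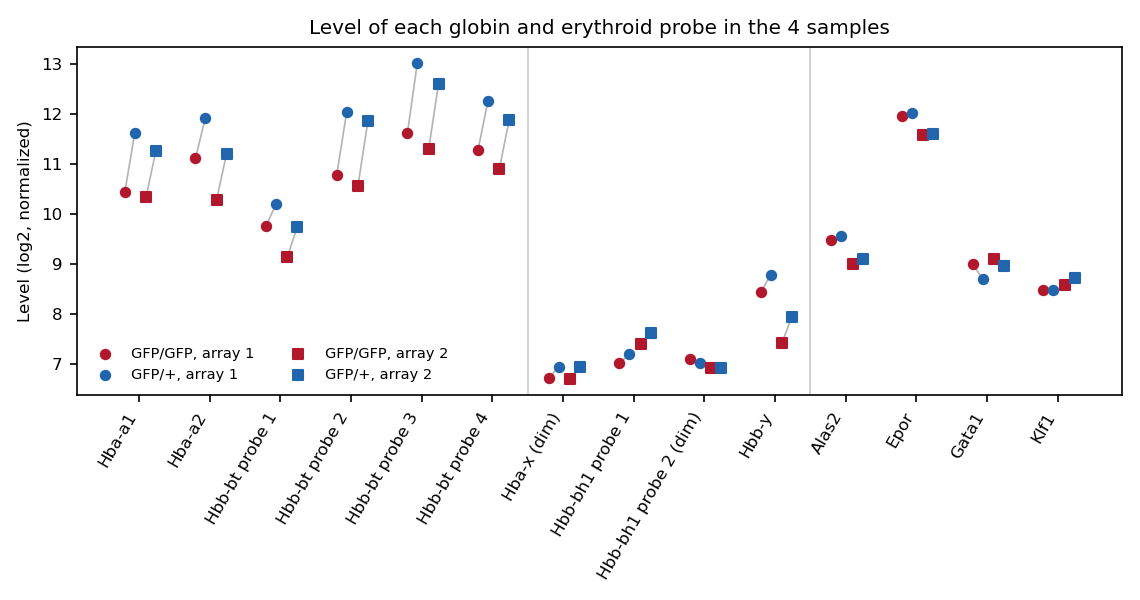
Normalised log2 level (vertical axis) of each of the 14 probes (horizontal axis, probes of a gene numbered 5′ to 3′) in the 4 samples. Red is GFP/GFP, blue GFP/+, circles array 1 and squares array 2, lines join the 2 pools on 1 array, and probes marked dim were not measured. In each adult globin pair the GFP/GFP point lies below the GFP/+ point, the embryonic points lie low on the axis, and the pairs of the erythroid genes are nearly level. Heights of different probes cannot be compared.

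Embryonic globin signals lay near background on array 2, and their ratios were smaller. Hbb-y, the epsilon-y chain of primitive red cells, read 8.43 and 7.42 in the GFP/GFP pool on arrays 1 and 2, against 8.79 and 7.95 in the GFP/+ pool. Its ratios were -0.35 and -0.53, with a mean of -0.44 ± 0.12 (SD, n = 2 arrays), below 0 on both arrays but short of the size rule. The pools overlapped across arrays, since both read higher on array 1, while GFP/GFP lay below GFP/+ on each array. Hbb-bh1, the beta-h1 chain, read 7.02 and 7.41 in GFP/GFP on its probe 1, against 7.20 and 7.62 in GFP/+, a mean ratio of -0.20 ± 0.03. In the authors' deposited table this probe turned direction on array 2, with 24.7 in GFP/GFP, against 24.1 in GFP/+. Its probe 2, which shares 40 of 60 bases with probe 1, read 7.11 and 6.93 in GFP/GFP, against 7.02 and 6.92 in GFP/+, a mean of 0.05 ± 0.05. These overlapping probes of 1 transcript thus lay on opposite sides of 0.

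Hba-x, the zeta chain and the embryonic partner of the alpha genes, read 6.72 and 6.70 in GFP/GFP, against 6.95 and 6.94 in GFP/+, a mean ratio of -0.23 ± 0.01. All 3 embryonic genes were well above background in both pools on array 1. On array 2, none was in GFP/GFP, and Hbb-y and probe 1 of Hbb-bh1 were in GFP/+, so Hba-x and probe 2 of Hbb-bh1 did not count as measured. The GFP/+ pool carried Cy5 on that array. More gene spots were well above background in the Cy5 pool on both arrays, 81.5% against 77.7% on array 1 and 68.1% against 64.0% on array 2. The authors' table held its lowest value, 15, for Hba-x in all 4 samples. By the size rule 0 of the 2 measured embryonic genes were lower or higher. Among the 2689 genes whose brightness lay between those of Hbb-bh1 and Hbb-y, 2.86% were lower.

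The embryonic ratios depended on the processing, and the cause was not tested. Without background correction their median was -0.30, against -0.32 in the main setting. The scanner software's own log ratios, which carry no added offset, gave Hbb-y -0.46 and -0.90 and Hbb-bh1 -0.50 and -0.33, against -0.35 and -0.53 and -0.17 and -0.22 in the main setting. For Hbb-bt the same log ratios were -1.39 and -1.34, close to -1.41 and -1.31. With the software's values neither embryonic gene passed 1.5-fold on both arrays.

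**Figure D2:**
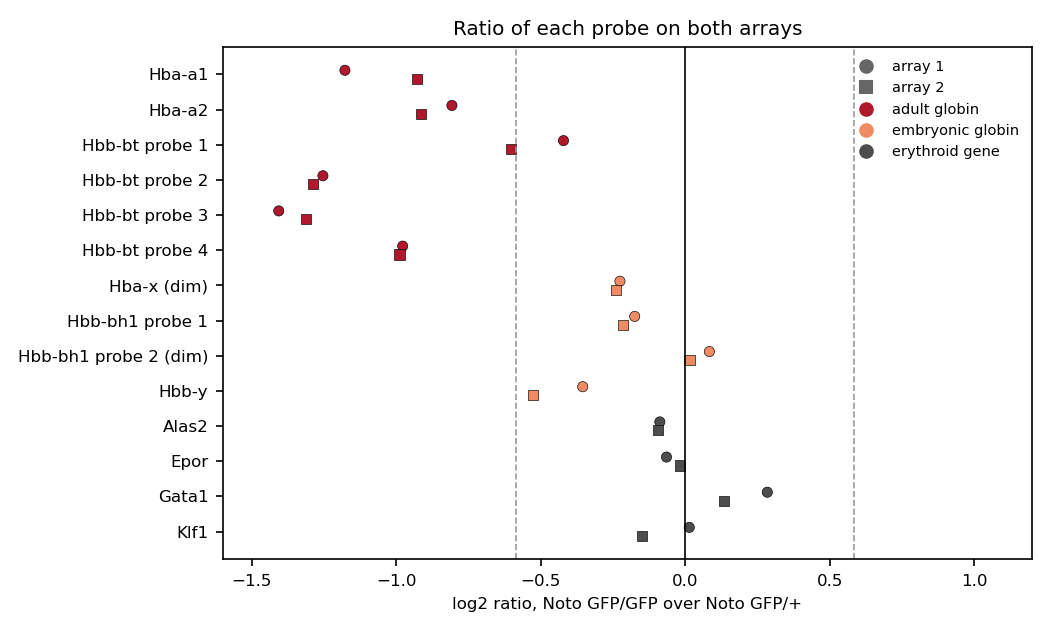
Log2 ratio of GFP/GFP over GFP/+ (horizontal axis) for each of the 14 probes (vertical axis, probes of a gene numbered 5′ to 3′), with circles for array 1 and squares for array 2. Dashed lines mark 1.5-fold. In 5 of the 6 adult globin probes both arrays lie past 1.5-fold, and no embryonic or erythroid probe does so on both arrays.

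The 4 erythroid genes lay near 0 and well above background in both pools on both arrays. Alas2 read 9.48 and 9.01 in the GFP/GFP pool on arrays 1 and 2, against 9.57 and 9.11 in the GFP/+ pool, a mean ratio of -0.09 ± 0.01 (SD, n = 2 arrays). Epor read 11.96 and 11.59 in GFP/GFP, against 12.02 and 11.60 in GFP/+, a mean of -0.04 ± 0.03. Klf1 read 8.49 and 8.58 in GFP/GFP, against 8.48 and 8.73 in GFP/+, with ratios on either side of 0 and a mean of -0.07 ± 0.12. In Alas2, Epor and Klf1 the pools overlapped, and 0 of the 4 erythroid genes passed the size rule. With 2.35% of all measured genes lower and 0.0591% higher, that count is near the background share.

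Gata1 was the 1 measured member gene with ratios above 0 on both arrays. Its pools did not overlap, though GFP/GFP on array 1 (8.99) and GFP/+ on array 2 (8.97) lay close. Its level was 8.99 and 9.10 in GFP/GFP, against 8.71 and 8.97 in GFP/+, with ratios of 0.28 and 0.13 and a mean of 0.21 ± 0.11. The Gata1 probe was spotted 10 times on each array, which shows the spread within an array. Its spots ranged from 0.20 to 0.36 on array 1 and from 0.06 to 0.20 on array 2, with an SD of 0.05 on each. Over the 182 measured probes with at least 8 spots on each array, the median SD between spots was 0.05 on array 1 and 0.04 on array 2, while the median SD over arrays of all measured genes was 0.12.

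The 3 classes are set side by side on each array as a description, since the adult ratios chose the set. On array 2, where GFP/+ carried Cy5, Hbb-y and Hbb-bh1 counted as measured through the GFP/+ pool alone. The median ratio of the 3 adult genes was -1.18 on array 1 and -0.93 on array 2, that of the 2 measured embryonic genes was -0.26 and -0.37, and that of the 4 erythroid genes was -0.03 and -0.06. The adult minus embryonic difference was -0.91 and -0.56, with a mean of -0.74 ± 0.25 (SD, n = 2 arrays). The adult minus erythroid difference was -1.15 and -0.87, with a mean of -1.01 ± 0.20. Both differences had the same sign on each array. The genes of the adult minus erythroid difference were well above background in every sample, and those of the embryonic side were not. With array 2 left unturned, which counts genes that follow the dye, 4 genes in all were lower and 10 higher. Members numbered 0. For the adult genes that outcome was fixed in advance by ratios of the same sign on both arrays, so it is no check of them.

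The gap between adult and embryonic chains depended more on the setting. It was -0.47 with median centring, against -0.74 in the main setting, and it could not be computed when both genotypes had to be well above background on both arrays, because no embryonic gene was left. The single adult probe that missed the rule, Hbb-bt probe 1, also lay close to Hbb-y, with -0.42 and -0.60 on the 2 arrays beside -0.35 and -0.53. With median centring, Hbb-bh1 read -0.60 on array 1, below Hba-a2 at -0.37, and with the software's log ratio Hbb-y read -0.90 on array 2, beside -0.94 for Hba-a2. The order of single adult and embryonic genes thus depended on the setting and the array.

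**Figure D3:**
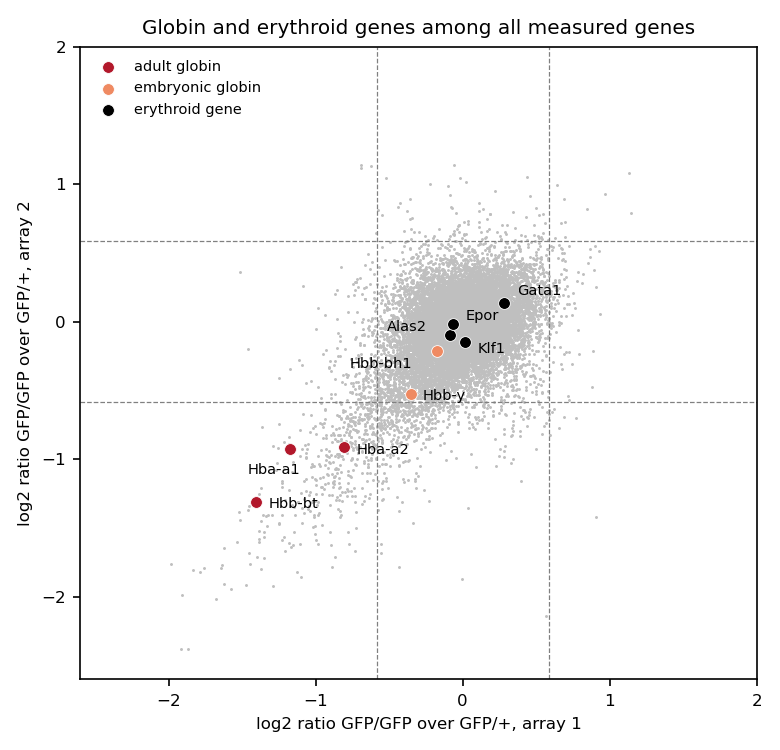
Log2 ratio of GFP/GFP over GFP/+ on array 1 (horizontal axis) against array 2 (vertical axis) for each of the 18607 measured genes (grey) and the 9 measured globin and erythroid genes (coloured and named). Dashed lines mark 1.5-fold. The 3 adult globins lie in the lower left field on both arrays, Hbb-y and Hbb-bh1 lie between them and the cloud's centre, and the 4 erythroid genes lie within the cloud.

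**Figure D4:**
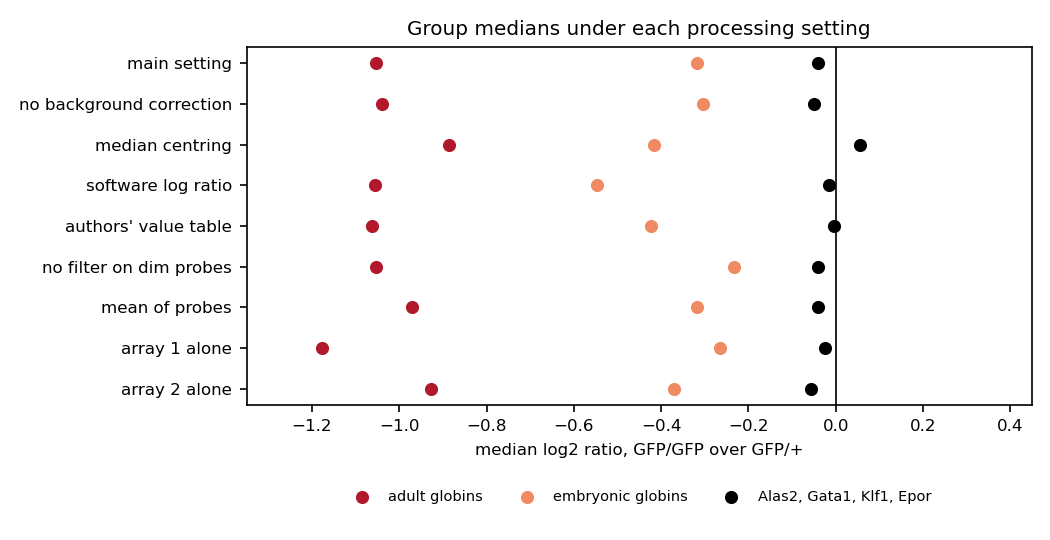
Median log2 ratio of GFP/GFP over GFP/+ (horizontal axis) of the adult globins, the embryonic globins and the 4 erythroid genes under each setting of the processing (vertical axis). The adult median stays between -1.18 and -0.89, the embryonic one between -0.55 and -0.23, and the erythroid one between -0.06 and 0.06.

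In the list of haem synthesis enzymes and transporters, 0 of 10 measured genes were lower or higher and the median ratio was 0.04, and the median over all measured genes was -0.02. Of all measured genes, 2.35% were lower and 0.0591% higher, so a count of 0 in this or any list below is near the background share. Fech, which inserts iron into haem, read 0.25 ± 0.05 on its brightest probe and -0.04 ± 0.09 on another measured probe. Abcb10, a mitochondrial transporter of red cells, read -0.22 ± 0.11. Genes of iron handling and globin folding also had 0 of 11 measured called, with a median of 0.03. The iron reductase gene Steap3 read 0.30 ± 0.02, and the ferritin gene Fth1 read 0.33 on array 1 and -0.77 on array 2. The alpha globin chaperone, named Eraf in the files, was dim on array 2 and read -0.09 ± 0.04.

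Transcription factors of blood formation had 0 of 17 measured genes called and a median of -0.09, with 8 below 0 on both arrays and 2 above. Of all 18607 measured genes, 6323 were below 0 on both arrays and 4776 above. Tal1, a master regulator of blood formation, read -0.28 and -0.66, with a mean of -0.47 ± 0.27. Cbfa2t3, a corepressor that works with Tal1, read -0.42 ± 0.25 on its brightest probe and -0.59 ± 0.34 on another measured probe. Of 22 red cell membrane and antigen genes, 15 were measured, 0 were called and the median was 0.03. The highest of them was the spectrin gene Sptb at 0.30 ± 0.13, and the water channel gene Aqp1 read 0.22 ± 0.09.

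Genes of the blood islands, which mark haemangioblast and endothelium, had 0 of 11 measured called and a median of 0.01. Etv2, an early factor of blood and endothelium, came nearest to the rule with -0.74 and -0.44, a mean of -0.59 ± 0.21, and Kdr, a VEGF receptor, read -0.32 ± 0.06. Other members of the globin family had 0 of 4 measured called. Neuroglobin, Ngb, read 10.26 and 9.65 in GFP/GFP, against 10.84 and 11.02 in GFP/+, and its ratios of -0.58 and -1.37 narrowly missed the rule on array 1. Myoglobin, Mb, read 0.08 ± 0.02, and Hbq1a, a theta-like gene of the alpha cluster, was dim on array 2. The related Hbq1b was well above background in every sample and read 0.07 ± 0.09.

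Markers of other blood cells and of maternal tissue are given beside the globins. Of 21 leukocyte genes with a probe, 9 were measured, 0 were called, and the median was -0.14, with 7 below 0 on both arrays, where 6323 of all 18607 measured genes were. The pan-leukocyte gene Ptprc was not well above background in either pool, the neutrophil gene S100a9 read -0.37 ± 0.15, and the T cell gene Cd3e read -0.37 ± 0.25. On array 2, where GFP/+ carried Cy5, S100a9 counted as measured through GFP/+ alone. The related S100a8, dim on array 2, read 0.35 ± 0.07, and another Cd3e probe, dim in every sample, read 0.14 ± 0.15. Summed over the leukocyte list, the log2 level was 13.98 and 13.70 in GFP/GFP, against 14.04 and 13.79 in GFP/+. For the adult globins the same sum was 12.72 and 12.30 in GFP/GFP, against 13.91 and 13.43 in GFP/+. The brightest leukocyte probe, for the actin regulator Coro1a, read 13.32 and 13.05 in GFP/GFP, against 13.41 and 13.10 in GFP/+, and makes up most of the leukocyte sum. Platelet genes had 5 of 10 measured, 0 called and a median of -0.09, with Gp1bb at -0.30 ± 0.05 and Gp1ba at 0.26 ± 0.10.

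Decidual genes had 1 of 9 measured higher and 0 lower, with a median of 0.11. The higher one was Prl8a2, a hormone of the decidua, with 10.05 and 9.51 in GFP/GFP, against 8.92 and 8.42 in GFP/+, a ratio of 1.11 ± 0.03, while 0.0591% of all measured genes were higher. Hoxa11 read 0.31 ± 0.22. The decidual sum was 15.39 and 15.61 in GFP/GFP, against 15.06 and 15.55 in GFP/+. Most of that sum is the level of 1 gene, Gja1, at 15.22 and 15.48 in GFP/GFP, against 14.89 and 15.42 in GFP/+, so it does not describe the list as a whole. Trophoblast genes had 0 of 9 measured called and a median of -0.26, with Plet1 at -0.53 ± 0.18 and Prl3d1 at 0.36 ± 0.09. Another measured Plet1 probe read -0.20 ± 0.08. Visceral endoderm genes, which line the embryo next to the yolk sac, had 0 of 15 called and a median of 0.02, with Lrp2 at 0.40 ± 0.12 and Fgg at -0.37 ± 0.17. The part that any of these tissues has in the globin ratios was not tested. The 11 node genes used to check the labelled tissue were all well above background in every sample, with a median of -0.03. Of them 1 was higher (Lefty2, a Nodal antagonist, at 0.82 ± 0.25) and 0 lower, and Foxj1 read -0.52 ± 0.09. On both arrays 5 node genes were below 0 and 3 above, where 6323 and 4776 of all 18607 measured genes were. Noto itself was not analysed here.

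**Figure D5:**
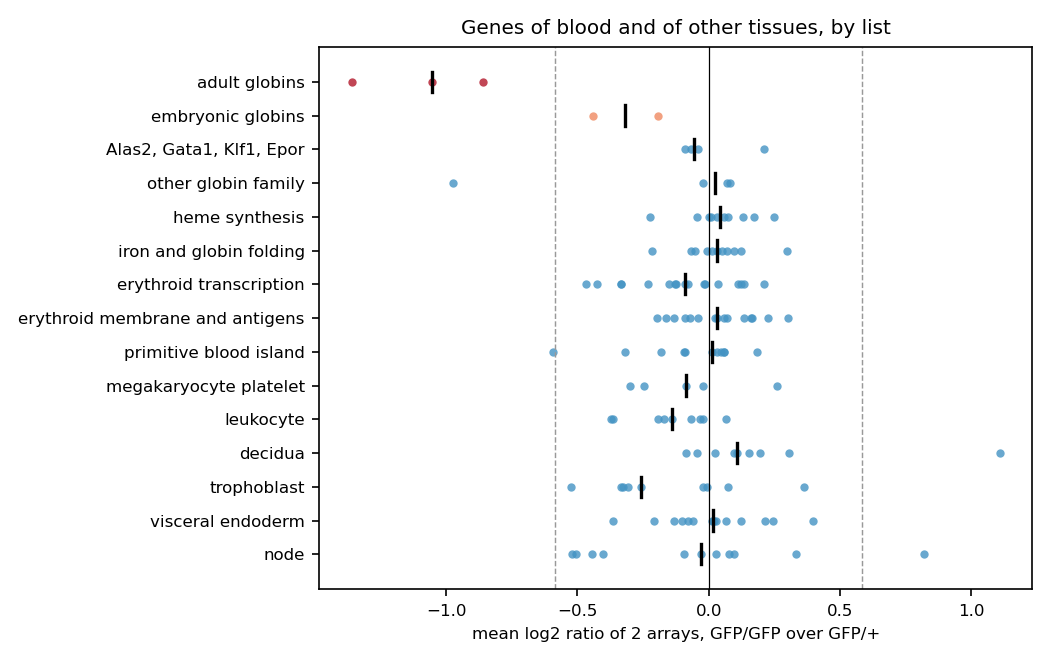
Mean log2 ratio over 2 arrays of GFP/GFP over GFP/+ (horizontal axis) for each measured gene of 15 lists (vertical axis), with a black bar at the median of the list and dashed lines at 1.5-fold. The 3 adult globins lie apart on the left, and outside them the genes past a dashed line are Ngb and Etv2 on the left and Prl8a2 and Lefty2 on the right. Ngb and Etv2 missed the rule on 1 array each, and Prl8a2 and Lefty2 passed it.

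Genes that flank the globin clusters on the chromosome were looked at after the globin values were seen. The 10 nearest measured genes of the alpha cluster, from Nsg2 to Fgf18, had ratios from -0.49 to 0.24 with a median of -0.05, and 0 were called. Nprl3, the next gene before the cluster, whose introns hold its main enhancers, read 0.00 ± 0.19, and Mpg, a DNA repair gene, read -0.19 ± 0.16. The 10 nearest measured genes of the beta cluster are olfactory receptors and read from -0.43 to 0.07, with 0 called. With 2.35% of all measured genes lower, 0 of 10 in each cluster is near the background share and is no result about these neighbours.

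The 5 other genes below lay nearest to the median adult globin ratio over the 2 arrays among 1824 named genes of like brightness. They were Phxr5, Clcn1, Sfxn4, Guca1b and Dydc2, at distances of 0.08 to 0.25 on the log2 scale. Phxr5 read -1.11 and -0.97 and Clcn1, a chloride channel of skeletal muscle, -1.05 and -0.89. Guca1b, which regulates guanylate cyclase in photoreceptors, read -1.07 and -1.14. Likeness over 2 arrays of the same 2 pools says only that these genes had similar ratios here.

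Promoters of an alpha and a beta adult chain, which had lower ratios together, are shown with those of an embryonic chain of each cluster. They are the 150 bases before the annotated start in RefSeq, build GRCm38.p6, on the strand of the gene. Capitals mark matches on either strand to GATA letters (AGATAA or TGATAA or AGATAG or TGATAG), to the CACCC letters CCNCNCCC, where N is any base, or to CCAAT. Of the 10 genes, all but Hbb-bh1 had an entry.
Hba-a1, chr11:32283522-32283671: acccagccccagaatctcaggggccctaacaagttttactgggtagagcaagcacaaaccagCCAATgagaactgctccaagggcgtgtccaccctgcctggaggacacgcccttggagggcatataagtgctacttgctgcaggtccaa
Hbb-bt, chr7:103813924-103814073: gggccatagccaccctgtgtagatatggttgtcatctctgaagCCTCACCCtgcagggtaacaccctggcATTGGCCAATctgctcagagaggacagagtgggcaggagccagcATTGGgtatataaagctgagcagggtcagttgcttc
Hba-x, chr11:32276450-32276599: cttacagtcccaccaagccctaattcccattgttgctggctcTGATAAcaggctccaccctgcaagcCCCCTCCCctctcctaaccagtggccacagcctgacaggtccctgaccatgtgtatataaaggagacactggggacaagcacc
Hbb-y, chr7:103853208-103853357: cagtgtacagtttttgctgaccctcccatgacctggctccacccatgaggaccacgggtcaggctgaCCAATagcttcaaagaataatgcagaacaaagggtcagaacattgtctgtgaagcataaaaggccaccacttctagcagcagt

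In these windows Hbb-bt held 1 CACCC match and 3 CCAAT matches, of which an adjacent pair lies on opposite strands. Hba-a1 and Hbb-y each held 1 CCAAT match only, and Hba-x held 1 GATA and 1 CACCC match. Of all 32851 promoter windows of this length, 16% held a GATA match, 38.1% a CACCC match and 24.5% a CCAAT match. The Hba-a2 window was the same as that of Hba-a1 at 147 of 147 bases once moved by 3 bases, so the 2 alpha genes cannot be told apart there. A match describes letters only.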

How the data were processed

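Agilent Feature Extraction 9.5.3.1 read the arrays, per the file headers and the submitters' processing notes. The deposited scanner files hold, per the file headers, foreground and background intensity per spot, a detrended and dye-normalized processed intensity, a log10 ratio of red over green and flags of spot quality. Paired samples share 1 scanner file, byte for byte. The authors' deposited value table of intensities followed the dye named in the labels, at 1.07 (array 1) and 1.28 (array 2) times the processed intensity with a floor of 15. Its column medians were 109.6 and 95.1 for GFP/GFP and 110.6 and 96.2 for GFP/+. Its method is not stated.

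From mean foreground and median background, limma 3.58.1 in R 4.3.3 applied normexp correction with an offset of 50 and a loess fit per array in which controls weighed 0. Outlying spots (179 and 165) were left out, and array 2 was turned so that both ratios read GFP/GFP over GFP/+. Levels come from the same values after Aquantile scaling between arrays, and saturated gene spots numbered 0. Between 64.0% and 81.5% of gene spots were well above background in each sample. For the spiked controls, measured log ratios followed the nominal ones with a slope of 0.809 on array 1 and 0.705 on array 2, and the number of arrays limits the precision. Both pools are on each array, so values per array are values within a batch. RefSeq (GRCm38.p6) named 33116 of 41174 probes and the file's name was kept for 8058. Calls were tested on simulated data. Summaries used Python 3.11.15, numpy 2.4.6, pandas 2.3.3 and matplotlib 3.10.9.

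Genes named are all members, every called gene of each list, and otherwise the 2 measured genes of a list farthest from 0. The members and lists were chosen with earlier results of these data known. A few further genes are named as markers, neighbours or the main part of a sum, chosen after their values were seen. They are Eraf, Ptprc, Hbq1a, Hbq1b, S100a8, Coro1a, Gja1, Mpg and Nprl3, while Nsg2 and Fgf18 mark the ends of the alpha cluster's neighbours.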

Additional observations from a re-analysis of the deposited data

How the results depend on the processing

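No paired analysis was possible because the values come from no test, which leaves no fit to add a block to. The limits are a single RNA pool for each genotype, arrays that repeat the same RNA, and embryonic globin probes close to background. The median over adult globin genes moved by less than its SD over arrays under no background correction, median centring, the software's log ratio, the authors' table, no filter on dim probes, detection in both genotypes and the mean of probes. With 1 array left out it ran from -1.18 to -0.93, the embryonic median from -0.37 to -0.26, the erythroid median from -0.06 to -0.03, and the adult differences from -0.91 to -0.56 (embryonic) and -1.15 to -0.87 (erythroid). One array alone gave 3 member genes and 5 to 6 member probes lower.

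The cause of the following shifts was not tested unless the setting itself shows it. The embryonic median was -0.42 with median centring, -0.55 with the software's log ratio, -0.42 with the authors' table and -0.23 with no filter, which adds Hba-x. The erythroid median was 0.0558, -0.0153 and -0.0044 with the first 3 of these, and the adult minus embryonic difference was -0.47 with median centring, which moved the median of all genes to 0.12 (0.39 on array 1 and -0.16 on array 2). Relative to those medians the adult globins lie below 0 on both arrays. Member probes called lower numbered 3 with median centring, and member genes and probes 1 and 2 at 2-fold. With array 2 unturned both numbered 0, which was fixed in advance for those that passed the rule. Genes called in the other lists numbered 4 with the software's log ratio and 4 with the authors' table, against 2. All genes lower and higher numbered 713 and 101 with the software's log ratio and 651 and 95 with the authors' table, against 437 and 11.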
